A study of Mus musculus with 4 samples.

Results

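The 10 genes examined here encode enzymes that hydroxylate and cross-link collagen: Lox, Loxl1, Loxl2, Loxl3, Loxl4, Plod1, Plod2, Plod3, P4ha1 and P4ha2. They were picked by gene symbol from a count table of 21834 protein-coding genes, and all 10 have a row in it. The choice was made with results of this same comparison known. Their differences between the groups are therefore a description, no p-value is given for them, and the counts of calls among them support nothing by themselves. The lists of other genes used below were also chosen with earlier results of these data known. Any p-value given for a gene of those lists is likewise a description and no independent support.

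The libraries come from cultures of mouse bone marrow derived monocytes. All were given RANKL, the cytokine that drives these precursors to become bone-resorbing osteoclasts, and were collected after 3 days, and all were rinsed in buffer with cycloheximide, which halts translation. They fall into a group of 2 libraries labelled as a conditional knockout of Nat10 (labelled cKO below) and a wild-type group of 2 (WT). The product of Nat10 acetylates cytidines in RNA, and the comparison asks how transcripts differ between the labelled genotypes in cells given RANKL. The sources used here do not name the promoter that drives the recombinase, the deleted exons, the age, sex or strain of the mice, or any pooling of animals. Nothing in the labels says that replicates came from separate animals, so p-values reflect only how far these libraries differ, and that spread may be technical.

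Collagen chains are modified inside the cell before they are secreted. Prolyl 4-hydroxylase, whose catalytic alpha subunits are P4ha1 and P4ha2, hydroxylates prolines and so stabilises the triple helix, and the lysyl hydroxylases of the Plod genes hydroxylate lysines that later take part in cross-links. Outside the cell the lysyl oxidases, copper enzymes of the Lox family, oxidise lysines and hydroxylysines to aldehydes that join neighbouring chains. In bone this work is known mainly from osteoblasts and other stromal cells, whereas osteoclasts are known for breaking the collagen down.

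Total counts were 11291993 and 14097638 in the labelled cKO libraries and 10037338 and 13063821 in the WT libraries. On chromosome 2 (103551601 to 103591615, GRCm39), Nat10 was counted 184 and 205 times in the labelled cKO libraries, against 165 and 238 in the WT libraries. Its log2 fold change was -0.24 (SE 0.153, 95% interval -0.56 to 0.08), and it was not called in the edgeR test (adjusted p = 0.263). Reads were summed over the gene, which cannot show whether part of it was deleted, and each direction below rests on the labels. Markers of the labelled cell type were present in every library. The 10 macrophage markers summed to 30599 and 34389 CPM in the labelled cKO libraries and 19438 and 21393 CPM in the WT libraries, and the 10 osteoclast markers to 6304 and 7028 CPM in the labelled cKO libraries and 4885 and 5153 CPM in the WT libraries. CPM are counts relative to library size, scaled with TMM factors. Most of the macrophage sum was Lyz2, with 23594 and 27535 CPM in the labelled cKO libraries and 14102 and 15928 CPM in the WT libraries. The median log2 fold change of the 10 macrophage markers was 0.088, so their sum does not stand for the set.

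Genes with an edgeR adjusted p under 0.05 over the whole table are called higher or lower. Of the 11448 genes that passed the filter on low counts, 28.8% were called. In the labelled cKO libraries 1652 genes, 14.4% of those tested, were called higher and 1650, also 14.4%, lower. The split was 2247 higher and 1110 lower with upper-quartile factors, which put the median of all genes at 0.11, and 2026 and 1252 with library size only. Leaving out a WT library reduced the calls to 1058 and 1010 without replicate 1 and to 864 and 973 without replicate 2, and DESeq2 called 1065 and 1208. Of the 10 enzyme genes, 9 passed the filter and Loxl4 did not. Of these 9, 6 were called higher (Loxl1, Loxl2, Loxl3, Plod2, Plod3 and P4ha2), beside 14.4% of all genes tested, and Lox, Plod1 and P4ha1 were not called. Both labelled cKO libraries lay above both WT libraries for 8 of the 9, all but Plod1, beside 32.3% of all genes tested. Over all genes tested both labelled cKO libraries lay below both WT libraries for 31.3%, and the groups did not overlap in either direction for 63.6%. In these bulk cultures, fewer cells of a type and less RNA per cell cannot be told apart. The 11 alternative settings leave out each library in turn or change scaling, filter, test or blocking. With all 4 libraries kept, 6 or 7 of the 10 were called higher, beside 1065 to 2247 of all genes tested. With either WT library left out, Plod3 was no longer called (0.36 and 0.40). Loxl4 passed the filter in some fits with a library left out, so the genes tested there differ.

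**Figure D1:**
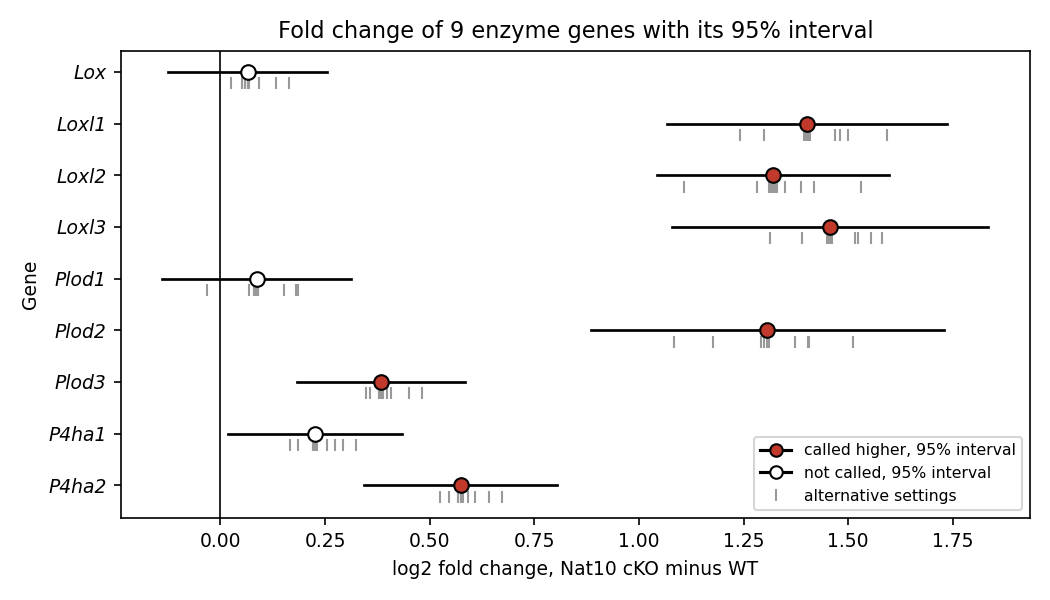
The log2 fold change of the 9 tested enzyme genes (x axis, labelled cKO minus WT) is drawn as a point with its 95% interval, filled where the gene was called higher, with the values under 11 alternative settings as grey ticks below it. Loxl1, Loxl2, Loxl3 and Plod2 sit between 1.31 and 1.46, while the intervals of Lox and Plod1 include 0.

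Lox, the founding lysyl oxidase, was by far the most abundant of the 10 transcripts and had nearly the same level in both groups. Lox (ENSMUSG00000024529, chromosome 18, 52649139 to 52662939 on GRCm39) had 908 and 958 CPM in the labelled cKO libraries, against 887 and 897 CPM in the WT libraries. The labelled cKO libraries were the higher ones, by a narrow margin. Its log2 fold change was 0.07 (SE 0.0904), with a 95% interval of -0.12 to 0.25, and it was not called under any of the 11 alternatives, where it lay between 0.025 and 0.16. By mean CPM it ranked 104 in the labelled cKO libraries and 132 in the WT libraries among 21834 genes. In WT this placed Lox above the genes of its main substrate, since Col1a2 ranked 1436 and Col1a1 ranked 2215, and in the labelled cKO libraries these ranked 287 and 379.

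Of the 4 less abundant relatives of Lox, 3 were called higher. Loxl2, which carries scavenger receptor cysteine-rich domains and is known for acting on basement membrane collagen IV, lies on chromosome 14 (ENSMUSG00000034205, 69846517 to 69933283 on GRCm39). It had 60.1 and 63.4 CPM in the labelled cKO libraries, against 28.5 and 21.3 CPM in the WT libraries. The groups did not overlap, and the WT libraries lay further apart than the labelled cKO libraries. Its log2 fold change was 1.32 (SE 0.132), a 2.5-fold higher level. Loxl1, known from mice lacking it as an enzyme needed to renew elastic fibres, lies on chromosome 9 (ENSMUSG00000032334, 58195021 to 58220469). It had 26.0 and 29.7 CPM in the labelled cKO libraries, against 9.19 and 11.7 CPM in the WT libraries, a log2 fold change of 1.40 (SE 0.159). Loxl3, a relative of Loxl2 needed for palate and spine development in mice, lies on chromosome 6 (ENSMUSG00000000693, 83011154 to 83029543). It had 18.9 and 17.4 CPM in the labelled cKO libraries, against 7.25 and 6.03 CPM in the WT libraries, a log2 fold change of 1.46 (SE 0.180). All 3 were called higher under each of the 11 alternatives, with values between 1.11 and 1.59. Loxl3 shares 1297 bases at its end with Htra2 on the other strand. No label states whether the counting used strand, and reads in that stretch could be counted under either gene. Htra2 itself was not called (log2 fold change 0.14, SE 0.113).

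Loxl4 (ENSMUSG00000025185, chromosome 19, 42582421 to 42601252 on GRCm39), the remaining lysyl oxidase, was close to the limit of detection. It had 7 and 20 counts in the labelled cKO libraries, against 4 and 0 in the WT libraries, where 0 counts allow a level of up to 0.235 CPM (3 counts, for counting error only). The labelled cKO libraries were both higher, but the gene was left out by the filter on low counts and has no fold change here. In fits where a library was left out or no filter was set and Loxl4 was tested, it was called higher without labelled cKO replicate 1 and without WT replicate 1, and not called without WT replicate 2 or with no filter.

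**Figure D2:**
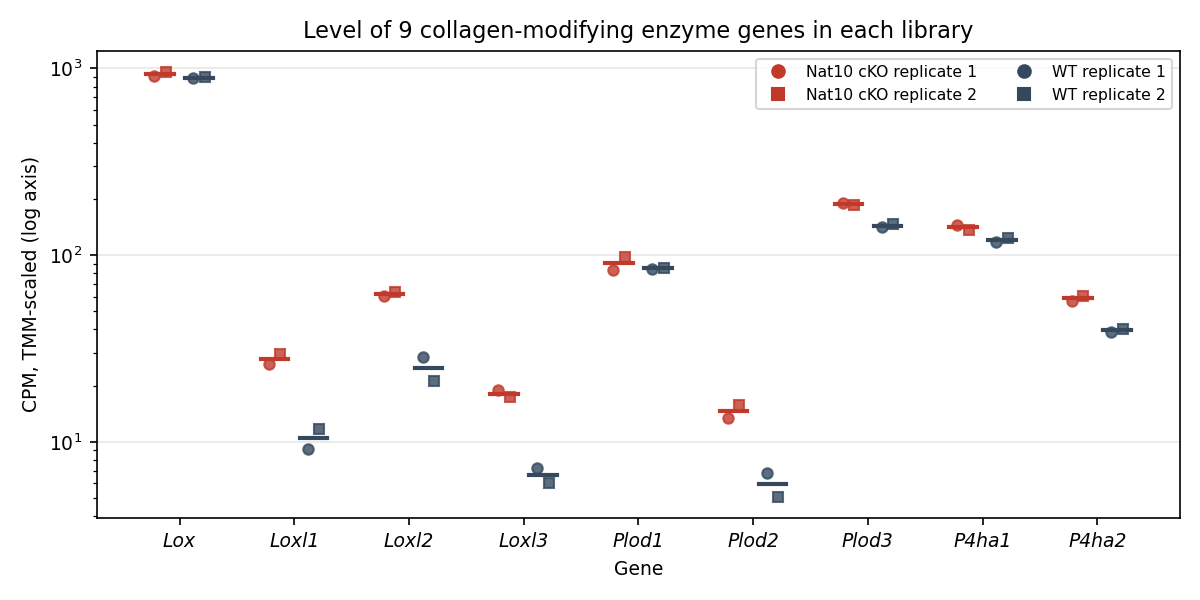
The level of 9 enzyme genes is plotted by library in CPM on a log axis, labelled cKO left and WT right for each gene, with replicate 1 as circles, replicate 2 as squares and a bar at the mean of 2 libraries; Loxl4 is left out for its zero count. Lox lies between 887 and 958 CPM at the top of the plot, and the gap between groups is widest for Loxl1, Loxl2, Loxl3 and Plod2.

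The lysyl oxidase transcripts differed between the groups both in make-up and in total. The 5 lysyl oxidase genes summed to 1042 ± 39.6 CPM in the labelled cKO libraries and 934 ± 2.67 CPM in the WT libraries (SD, n = 2 each), a ratio of 1.12. Lox made up 89.6% ± 0.026 of that sum in the labelled cKO libraries and 95.5% ± 0.49 in the WT libraries. Loxl2 made up 5.93% ± 0.0024 in the labelled cKO libraries and 2.67% ± 0.55 in the WT libraries. The ratio of Loxl2 to Lox counts was 0.0662 and 0.0662 in the labelled cKO libraries, against 0.0321 and 0.0238 in the WT libraries. It was 2.37 times as high in the labelled cKO libraries by the means, and the groups did not overlap.

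Among the lysyl hydroxylases, the least abundant gene differed most. Plod2, whose enzyme hydroxylates the telopeptide lysines that give rise to the stable cross-links of bone and scar collagen, lies on chromosome 9 (ENSMUSG00000032374, 92424276 to 92490481 on GRCm39). It had 13.4 and 15.7 CPM in the labelled cKO libraries, against 6.84 and 5.09 CPM in the WT libraries. Its log2 fold change was 1.31 (SE 0.201), it was called higher under each of the 11 alternatives, and the groups did not overlap. Plod1 (ENSMUSG00000019055, chromosome 4, 147994210 to 148021224), which hydroxylates lysines within the collagen helix, had 83.4 and 97.2 CPM in the labelled cKO libraries, against 84.4 and 85.8 CPM in the WT libraries. Its groups overlapped, with the lowest and the highest of the 4 values both in the labelled cKO group. The log2 fold change was 0.09 (95% interval -0.14 to 0.31) and had the other sign, -0.032, without labelled cKO replicate 2. The Plod2 to Plod1 ratio was 0.160 and 0.162 in the labelled cKO libraries, against 0.081 and 0.059 in the WT libraries.

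Plod3 (ENSMUSG00000004846, chromosome 5, 137015873 to 137025502 on GRCm39), whose enzyme also adds glucose to hydroxylysine that carries galactose, was the most abundant lysyl hydroxylase gene. It had 191 and 185 CPM in the labelled cKO libraries, against 142 and 146 CPM in the WT libraries, a log2 fold change of 0.38 (SE 0.0958). Every labelled cKO value lay above every WT value, but the call ended without WT replicate 1 (0.36, SE 0.164) and without WT replicate 2 (0.40, SE 0.157). With a library left out its group has a single library, which is assumed to vary like those of the other group. Plod3 overlaps the gene Znhit1 on the other strand by 1003 bases, and Znhit1 was not called (log2 fold change -0.0039, SE 0.112). The 3 genes summed to 293 ± 6.75 CPM in the labelled cKO libraries and 235 ± 2.67 CPM in the WT libraries (SD, n = 2 each).

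The prolyl 4-hydroxylase alpha subunits had smaller fold changes than Loxl1, Loxl2, Loxl3 and Plod2. P4ha2 (ENSMUSG00000018906, chromosome 11, 53990921 to 54022491 on GRCm39), the subunit known to be prominent in cartilage and bone, had 57.1 and 60.8 CPM in the labelled cKO libraries, against 38.9 and 40.3 CPM in the WT libraries. Its log2 fold change was 0.57 (SE 0.110), and it was called higher under each of the 11 alternatives. P4ha1 (ENSMUSG00000019916, chromosome 10, 59159118 to 59209126 on GRCm39), the main subunit of most tissues, had 146 and 136 CPM in the labelled cKO libraries, against 118 and 123 CPM in the WT libraries. The groups did not overlap for either gene. The log2 fold change of P4ha1 was 0.23 (SE 0.0991, 95% interval 0.018 to 0.43), and it was called with upper-quartile factors (0.32), library size only (0.29) or a replicate block (0.22) and without labelled cKO replicate 2 (0.27). P4ha2 made up 29.5% ± 1.93 of the counts of the 2 subunits in the labelled cKO libraries and 24.7% ± 0.20 in the WT libraries (SD, n = 2 each).

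Both alpha subunit genes are known targets of the hypoxia-inducible factor HIF, which binds short elements with the core ACGTG or GCGTG. Sequences upstream of 5 of the 10 genes were at hand from RefSeq (GRCm38.p6), for Loxl4, Plod1, Plod3, P4ha1 and P4ha2. Those of the 2 alpha subunits and of Plod1, which had the smallest fold change of these, are shown 5′ to 3′ on the gene strand and end before the first annotated transcript base, with either core on either strand in capitals. P4ha2 lies at chr11:54100674-54100923 on the plus strand, P4ha1 at chr10:59323046-59323196 on the plus strand and Plod1 at chr4:147936777-147937026 on the minus strand.
P4ha2: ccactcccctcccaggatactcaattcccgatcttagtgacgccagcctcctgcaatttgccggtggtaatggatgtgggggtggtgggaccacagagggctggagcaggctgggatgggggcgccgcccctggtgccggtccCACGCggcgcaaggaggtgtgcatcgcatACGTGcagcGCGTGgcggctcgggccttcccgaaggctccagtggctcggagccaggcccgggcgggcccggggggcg
P4ha1: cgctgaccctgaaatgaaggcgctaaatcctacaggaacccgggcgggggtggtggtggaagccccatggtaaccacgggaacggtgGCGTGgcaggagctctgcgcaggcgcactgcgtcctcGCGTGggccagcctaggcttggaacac
Plod1: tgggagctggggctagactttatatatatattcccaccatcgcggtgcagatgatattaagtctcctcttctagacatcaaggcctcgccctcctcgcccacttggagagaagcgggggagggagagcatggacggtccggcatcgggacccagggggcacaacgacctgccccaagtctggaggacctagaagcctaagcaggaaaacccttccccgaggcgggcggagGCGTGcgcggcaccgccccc

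Within the 250 bases before the RefSeq start, the P4ha2 window held ACGTG 78 bases upstream (counted to the leftmost base as printed) and GCGTG at 69 on the gene strand, and GCGTG on the opposite strand at 107. That of P4ha1 held GCGTG at 163 and 126 and, on the opposite strand, ACGTG at 16, which lies in the stretch not shown because another RefSeq transcript covers it. The Plod1 window held a single GCGTG at 20. The Plod3 window, not shown, held more cores than any of the others. These were GCGTG at 104 and 90 and ACGTG at 54 on the gene strand, and GCGTG at 152 on the opposite strand. The Loxl4 window held a single GCGTG, on the opposite strand at 162. All 5 windows thus held a core, and 3 of them held ACGTG. No matches in these windows overlapped. Of all 32851 windows of this length, 38.6% held either core and 16.6% held ACGTG. A match in letters is a description of the window, and binding of any factor was not measured.

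Levels of different genes were compared per kilobase of exon, with exon lengths from GENCODE M21. In the labelled cKO libraries the means in CPM per kb were 195 for Lox, 41.6 for Plod3, 34.3 for P4ha1, 13.4 for Plod1, 11.4 for Loxl2, 9.45 for P4ha2, 8.45 for Loxl1, 3.94 for Loxl3, 2.7 for Plod2 and 0.24 for Loxl4. In the WT libraries they were 187 for Lox, 31.9 for Plod3, 29.3 for P4ha1, 12.6 for Plod1, 6.34 for P4ha2, 4.61 for Loxl2, 3.18 for Loxl1, 1.44 for Loxl3, 1.11 for Plod2 and 0.048 for Loxl4. Neighbours in these orders did not overlap between libraries of the same group. Loxl2 stood above P4ha2 in the labelled cKO group and below it in WT. Per kilobase of coding length, P4ha1 stood above Plod3 in both groups, with 84.3 against 80.3 CPM per kb in the labelled cKO libraries and 72.0 against 61.5 in WT. On that scale Loxl2 stayed below P4ha2 in both groups.

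Most substrate genes of these enzymes were higher in the labelled cKO libraries. In a list of 14 fibrillar and basement membrane collagen genes and elastin, 8 of the 12 tested genes were called higher and 4 were not called. The share called higher over all genes tested was 14.4%. The median log2 fold change of the list was 1.65, beside 0.0075 over all genes tested. Col1a1, a chain of the main bone collagen, had 384 ± 0.724 CPM in the labelled cKO libraries and 82.8 ± 1.29 CPM in the WT libraries (log2 fold change 2.21, SE 0.0980, edgeR adjusted p = 1.11e-11). Its partner chain Col1a2 differed by 1.88 (SE 0.0985), and the collagen V chains Col5a1 and Col5a2, which set the width of fibrils, by 2.05 and 1.73. Elastin, the other lysyl oxidase substrate, had 1 and 1 counts in the labelled cKO libraries and 2 and 3 in the WT libraries and was not tested; it is named after its counts were seen.

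Relative to collagen I, all tested enzyme genes were lower in the labelled cKO libraries. For every 100 counts of Col1a1 and Col1a2 together, Lox had 104 and 114 counts in the labelled cKO libraries, against 411 and 433 in the WT libraries, a ratio of 0.258. Plod1 had 9.54 and 11.6 counts on this scale in the labelled cKO libraries, against 39.2 and 41.4 in WT, a ratio of 0.262. P4ha1 had a ratio of 0.289, Plod3 one of 0.322 and P4ha2 one of 0.368. The 4 genes with the largest fold changes came nearer to collagen I, with ratios of 0.675 for Loxl3, 0.656 for Loxl1, 0.614 for Loxl2 and 0.605 for Plod2. The groups did not overlap for any of these 9 genes on this scale. These are ratios of read counts, not corrected for transcript length. Col1a1 and Col1a2 were themselves higher by 2.21 and 1.88 on the log2 scale, so a gene with a smaller difference comes out lower here. The median of all genes tested was 0.0075, so most genes would be lower on this scale, and no share over all genes was computed.

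**Figure D3:**
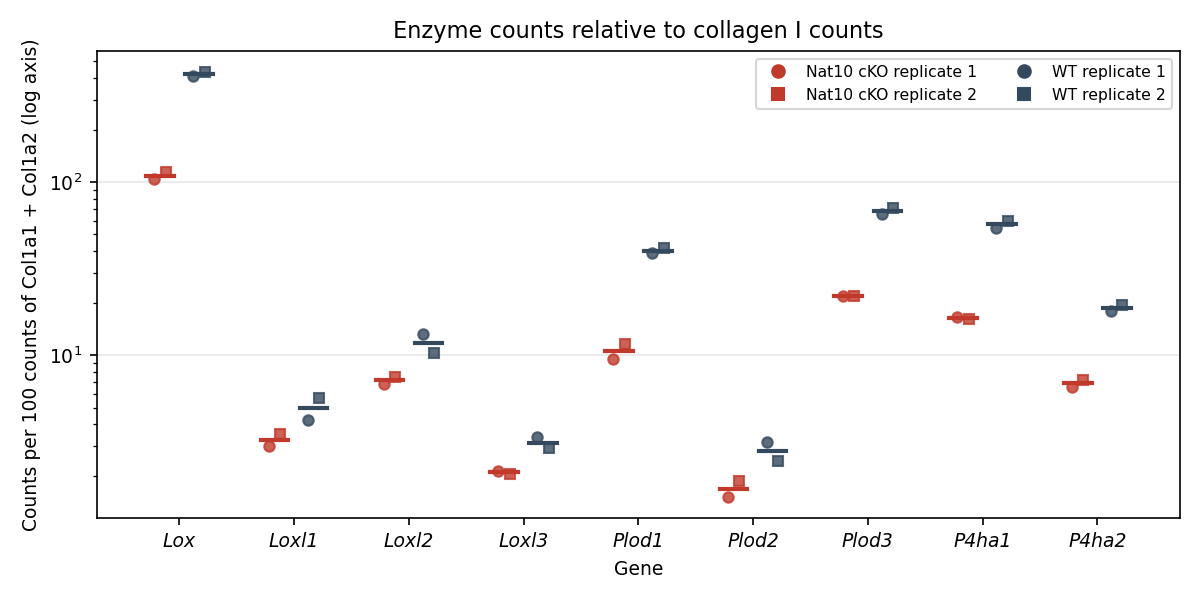
Counts of 9 enzyme genes per 100 counts of Col1a1 and Col1a2 together are plotted by library on a log axis, labelled cKO left and WT right for each gene, with bars at the mean of 2 libraries; Loxl4 is left out for its zero count. Every labelled cKO value lies below every WT value of its gene, and Lox is at 104 and 114 in the labelled cKO libraries against 411 and 433 in WT. The collagen I counts used as the base were themselves higher in the labelled cKO libraries.

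Genes whose products fold and modify collagen beside these enzymes were in part higher as well. Of 13 tested genes among 14 listed, 9 were called higher, beside 14.4% of all genes tested, and 4 were not called (median 0.87). Serpinh1, the collagen-specific chaperone HSP47, had 172 ± 25.2 CPM in the labelled cKO libraries and 40.0 ± 2.76 CPM in the WT libraries (log2 fold change 2.11, SE 0.120, edgeR adjusted p = 3.03e-10). Fkbp10, a prolyl isomerase needed for telopeptide lysine hydroxylation and hence a partner of the Plod2 enzyme, differed by 1.64 (SE 0.139), its relative Fkbp14 by 2.34 (SE 0.314), and Crtap, of the prolyl 3-hydroxylase complex, by 0.64 (SE 0.109). P4hb, the beta subunit that completes prolyl 4-hydroxylase, had 1211 ± 42.8 CPM in the labelled cKO libraries and 983 ± 11.4 CPM in the WT libraries, and was called higher (0.30, SE 0.0906), but not with WT replicate 1 left out (0.28) or WT replicate 2 left out (0.30). P4ha3, the third alpha subunit gene, was called at a low level, with 45 and 51 counts in the labelled cKO libraries and 6 and 22 in the WT libraries, and its call ended without WT replicate 1 (1.10 on the log2 scale). P4hb and P4ha3 were singled out for this pathway after their values were seen.

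Of 13 tested genes among 15 for procollagen processing, cross-link partners and copper supply, 9 were called higher and 4 were not called (median 1.52). Over all genes tested, 14.4% were called higher. Postn, which binds the lysyl oxidase activating protease to the matrix, differed by 2.17 (SE 0.128), and fibronectin Fn1, which also binds lysyl oxidase, by 1.52 (SE 0.106). The procollagen proteinase enhancer Pcolce differed by 2.01 (SE 0.234) and the N-proteinase Adamts2 by 1.61 (SE 0.185). Among genes chosen after their values were seen, Bmp1, the protease that releases active lysyl oxidase from its precursor, was called higher at 0.76 (SE 0.124). The genes for copper supply in the list, Atox1, Atp7a and Slc31a1, were also chosen after their values were seen. Of these, the chaperone Atox1 was called higher at 0.36 (SE 0.108). That call ended without labelled cKO replicate 2 (0.22), WT replicate 1 (0.35) or WT replicate 2 (0.36). The transporters Atp7a, which loads lysyl oxidase with copper, and Slc31a1 were not called, with log2 fold changes of -0.44 (SE 0.231) and -0.17 (SE 0.0940). Atp7a was called lower without labelled cKO replicate 1 (-1.02), with no filter (-0.44) and with a replicate block (-0.48). Its log2 fold change was -0.0072 without labelled cKO replicate 2. It had 20.6 and 10.3 CPM in the labelled cKO libraries, against 24.2 and 17.5 CPM in the WT libraries, and the groups overlapped.

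Genes of the hypoxia response, known HIF targets like several Plod and P4ha genes, were in part higher. Of 16 listed and tested, 10 were called higher, beside 14.4% of all genes tested, and 6 were not called (median 0.34). Vegfa, the angiogenic growth factor, had 137 ± 0.915 CPM in the labelled cKO libraries and 65.1 ± 4.94 CPM in the WT libraries (log2 fold change 1.07, SE 0.104, edgeR adjusted p = 3.79e-07). The prolyl hydroxylase Egln3, which marks HIF for degradation, differed by 0.77 (SE 0.124), the MYC antagonist Mxi1 by 0.63 (SE 0.119) and the lactate dehydrogenase subunit Ldha by 0.44 (SE 0.0942). Only 3 of the list were called without WT replicate 1, where the call of Ldha ended (0.39), and 4 without WT replicate 2. Windows upstream of 12 of the 15 list genes found in RefSeq held ACGTG, beside 4998 of all 27025 genes with a window. By window it was 13 of 22 (59.1%), beside 16.6% of all windows. The list was made of known HIF targets, so these matches describe the list and are no result of these libraries.

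Prolyl and lysyl hydroxylases use 2-oxoglutarate as a cosubstrate. Of 14 tested genes among 17 listed for other hydroxylases of this kind, 5 were called higher and 9 were not called (median 0.18). Over all genes tested, 14.4% were called higher. Tmlhe has no row in the table. This list shares P3h1, P3h2, P3h3 and P4ha3 with the folding list and Egln1 and Egln3 with the hypoxia list. The calls of P3h3, P4ha3 and Egln3 are therefore also counted in those lists. Phyh, of peroxisomal phytanic acid breakdown, differed by 0.75 (SE 0.117), and the aspartyl hydroxylase Asph by 0.45 (SE 0.114), a call that ended without WT replicate 2 (0.41). The collagen prolyl 3-hydroxylase gene P3h3 was called higher at 0.87 (SE 0.219).

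**Figure D4:**
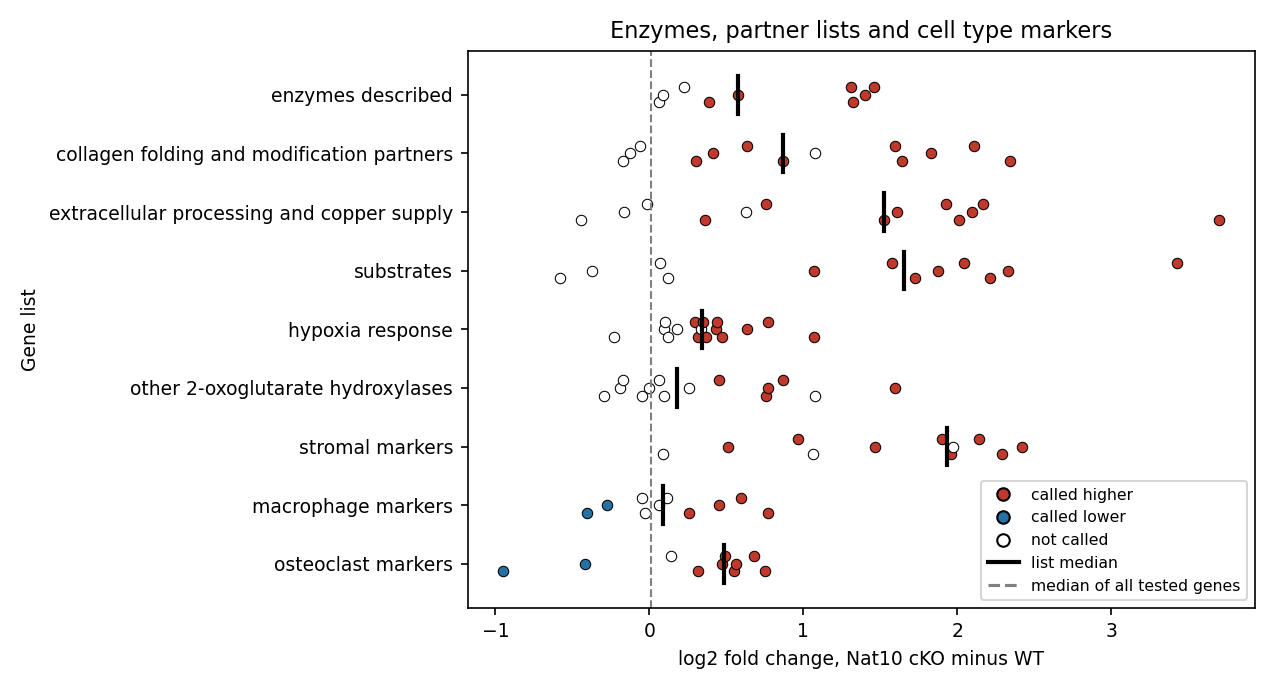
Each point is the log2 fold change of a tested gene (x axis, labelled cKO minus WT) in the enzymes described, 5 partner lists and 3 marker lists (rows), coloured by its call, with a bar at each list median and a dashed line at the median of all genes tested (0.0075). The substrates (median 1.65) and stromal markers (median 1.93) lie furthest right, and the enzyme genes spread between 0.07 and 1.46. Sp7, which has no WT count, is not drawn but counts in the median. With no filter on low counts the stromal median was 1.46.

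Most tested markers of stromal cells, which make most collagen of marrow and bone, were higher in the same libraries as the enzymes. Of 18 listed stromal and osteoblast markers, without collagens, 12 were tested. Of these, 9 were called higher, beside 14.4% of all genes tested, and 3 were not called (median 1.93). The filter can keep a gene through its labelled cKO counts alone, as for Sp7. It left out Mgp (9 and 3 counts in the labelled cKO libraries, 14 and 5 in WT) and Lum (4 and 4 against 1 and 7). The median was 1.46 with no filter and 1.69 with a filter at a mean of 1 CPM. The list summed to 249 and 268 CPM in the labelled cKO libraries, against 105 and 106 CPM in the WT libraries. The chemokine Cxcl12 differed by 2.42 (SE 0.193), the mesenchymal transcription factor Prrx1 by 2.14 (SE 0.202), and the proteoglycans Bgn and Dcn by 1.46 and 0.96. Sp7, an osteoblast transcription factor, had 13 and 21 counts in the labelled cKO libraries and 0 and 0 in the WT libraries, which makes it at least 9.85-fold higher when the summed WT libraries are set to the floor of 3 counts. Sp7 stays the highest value of the list at that bound, so the list median cannot move with it. The osteoblast gene Bglap, which has near-identical copies, was at 0 in every library, and Lepr had 0 and 1 counts in the labelled cKO libraries against 1 and 2 in the WT libraries. Runx2, also in the list, had 9.92 and 8.01 CPM in the labelled cKO libraries, against 8.68 and 8.15 CPM in the WT libraries. Its groups overlapped, and it was not called (log2 fold change 0.087). Sp7, Runx2, Bglap, Lepr, Mgp and Lum were singled out after their counts were seen. Without labelled cKO replicate 2, 5 of the list were called higher. Their part in the difference of the enzyme genes was not tested. Measured beside this list with all libraries kept, Loxl1, Loxl2, Loxl3 and Plod2 had log2 fold changes below its median, and that of Lox was 0.07. The order depended on the libraries used. Without WT replicate 1, Loxl2 (1.53), Loxl3 (1.58) and Plod2 (1.51) lay above the list median of that fit, and Loxl1 (1.24) lay below it. Without labelled cKO replicate 2, Loxl3 (1.52) lay above the list median of 1.43.

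Other cell types that such a culture could hold gave less uniform values. The counts of calls that follow stand beside 14.4% called higher and 14.4% called lower over all genes tested. Of 9 neutrophil markers, 6 were tested, 4 were called higher, among them Ngp (1.09) and S100a8 (1.01), and the protease gene Mmp8 was called lower (-0.84). The list summed to 806 and 908 CPM in the labelled cKO libraries, against 499 and 485 CPM in the WT libraries. Of 7 endothelial markers only Kdr and Pecam1 were tested, and Kdr, a receptor for the product of Vegfa, was called lower (log2 fold change -3.12, SE 0.189). The list summed to 8.80 and 7.45 CPM in the labelled cKO libraries, against 47.5 and 43.2 CPM in the WT libraries. Kdr itself had 6.47 and 3.62 CPM in the labelled cKO libraries, against 44.3 and 41.7 CPM in the WT libraries. Of 10 lymphoid and erythroid markers, 3 were tested and not called, 4 were at 0 in every library, and the sum was at most 4.39 CPM. Of the 10 macrophage markers, 4 were called higher and 2 lower (median 0.088), and of the 10 osteoclast markers 7 were called higher and 2 lower (median 0.48). The lower ones were C1qa and Ptprc among the macrophage markers and the calcitonin receptor gene Calcr and the fusion gene Dcstamp among the osteoclast markers. Leaving out WT replicate 2 left 4 osteoclast markers called higher, and leaving out WT replicate 1 left 2 macrophage markers called higher. Of the lower calls, 1 macrophage marker was called lower without labelled cKO replicate 2 or WT replicate 1 and 1 osteoclast marker was without labelled cKO replicate 1 or WT replicate 1, and both lists lost them without WT replicate 2. The part of these lists in the values of the enzyme genes was not tested.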

How the data were processed

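RNA was measured in 4 libraries of RANKL-treated mouse marrow cells, 2 per group. The authors deposited a table of read counts, not normalized, per the file headers. Ribosomal RNA was depleted before library preparation, per the labels' protocols. fastp 0.20.0, STAR 2.7.9a, featureCounts 2.0 and the build mm39 (GRCm39) are named in the submitters' processing notes. How strand was treated, and which gene annotation was used, is not given in the sources. Depth was 10037338 to 14097638 counts per library, which limits precision for genes of a few counts.

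From these counts, genes were filtered with filterByExpr, scaled with TMM factors and compared by edgeR's quasi-likelihood test (version 4.0.16, R 4.3.3, two-sided, group as the only term). P-values were Benjamini-Hochberg adjusted over all 11448 genes tested, with a threshold of 0.05. Log2 fold changes are labelled cKO minus WT, and the SE is the fold change over the root of the F statistic. Alternatives were RLE and upper-quartile factors, library size only, DESeq2 1.42.0, no filter, a filter at a mean of 1 CPM, a replicate block, and each library left out. Genes named in the lists are up to 4 called genes with the smallest p, called genes opposite to their list, and those said to be chosen after their values were seen. The members and lists were chosen with earlier results of these data known.

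The procedure was tested on simulated data. Replicates differed by more than sampling noise (chi-square per gene 11.2 in the labelled cKO group and 6.16 in WT). Exon lengths came from GENCODE M21 on GRCm38, matched by Ensembl identifier, and upstream sequences from RefSeq. No coordinates were converted between builds.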

Additional observations from a re-analysis of the deposited data

How the results depend on the processing

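The enzyme genes kept their direction under all 11 alternatives, except Plod1, which ranged from -0.032 (without labelled cKO replicate 2) to 0.18 with a library left out. Over the 16 counts of calls above 0 and their 11 alternatives, 155 of 176 values lay within 1.5 times the reported one. With all 4 libraries kept, 6 or 7 enzyme genes were called higher. Calls over all genes ranged from 864 to 1576 higher and from 973 to 1925 lower with a library left out, and DESeq2 called 1065 higher. The hypoxia list had 3 to 11 genes called higher with a library left out, the stromal list 5 to 8, the macrophage list 2 to 4 and the osteoclast list 4 to 7. Lower calls ranged from 0 to 2 in the macrophage and osteoclast lists and from 0 to 1 in the processing, substrate and 2-oxoglutarate lists. Lower calls numbered 1 for the macrophage list with upper-quartile factors, library size only or DESeq2, and 1 for the osteoclast list with upper-quartile factors or DESeq2. With no filter, 1 gene of the processing list and 1 of the substrate list was called lower, and the median of the endothelial list was 0.42 instead of -1.35, over more genes tested. Of the genes not called, Znhit1 had the other sign at 0.095 (upper-quartile factors), 0.062 (library size only) and 0.00011 (stricter filter) and ranged from -0.062 to 0.038 with a library left out, and Htra2 ranged from -0.0090 to 0.26. The causes of the other changes were not tested.

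The labels give both groups replicates 1 and 2 but no shared animal, litter or day. Deviations of same-numbered libraries from their group means correlated at 0.13 across genes. With 2 such pairs the numbers are not taken to pair the libraries. With a replicate block, 2126 genes were called higher and 2175 lower, P4ha1 was called, and 1 gene each of the processing, substrate and 2-oxoglutarate lists was called lower.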
